A study of Mus musculus with 10 samples.

Results

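The genes described here carry glucose into the cell, break it down to pyruvate and lactate, and regulate these steps in response to oxygen. They are 40 genes chosen by name, from the transporters and enzymes of glycolysis to the hypoxia regulators, and all 40 were present among the 23195 genes of the deposited comparison (16973 of them protein coding). The levels of wild-type and *Nos1ap* null hearts were taken as they stand in that table. To evaluate whether constitutive loss of *Nos1ap*, which encodes an adaptor of neuronal nitric oxide synthase, changes the transcriptome of the embryonic heart, polyA RNA was sequenced from hearts of male C57BL6/J embryos at embryonic day 13.5. There were 5 wild-type and 5 *Nos1ap* null libraries, each from a separate embryo as far as the study's methods tell. The null embryos were homozygous for the tm1d allele, which lacks exon 4 in every tissue after deletion with a CMV-Cre transgene and is free of the *lacZ* and *neo* cassettes. No drug or other treatment is given for either genotype.

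Glycolysis converts a glucose molecule to pyruvate in the cytosol, and most steps have several isoforms encoded by separate genes, with muscle, liver, brain and ubiquitous forms. In the midgestation heart, cardiomyocytes rely heavily on glycolysis and lactate, and oxidation of fatty acids takes over around and after birth. When oxygen is low, the prolyl hydroxylases no longer mark the HIF alpha subunits for destruction by the VHL ubiquitin ligase, and HIF binds hypoxia response elements at many glycolytic genes.

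Promoters in RefSeq (GRCm38.p6, 250 bases before to 50 after a transcription start) were matched by symbol to 37 of the 40 genes. *Epas1*, *Slc2a3* and *Slc2a4* were not matched. The letters ACGTG, the core of many hypoxia response elements, were searched on both strands, and the E-box CACGTG overlaps this motif on each strand. At least 1 match was present in 23 of the 37 genes (62.2%), against 21.8% of all 27025 genes with a promoter entry and 32.1% of the 2043 abundant protein-coding genes, those whose normalized counts averaged 1000 or more. By window, 27 of 54 (50%) held it, against 26.7% of windows of the abundant genes. CACGTG itself was in 16.7% and 10.4% of these windows. A match is a string of letters and not evidence of binding. The median GC content of the windows was 61.7% in the members and 63% in the abundant genes.

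For 3 of these promoters, chosen as textbook HIF targets whose window holds the motif, the sequence is given from the start of the window to the last base before the start site, with matches in capitals, and *Ldha* holds 3 separate matches, *Pgk1* 2 and *Bnip3* 1. That of *Ldha* lies at chr7:46845554-46845803 (plus strand), in an intron of the annotated gene. That of *Pgk1* lies at chrX:106186850-106187099 (plus strand), upstream of every annotated transcript. That of *Bnip3* lies at chr7:138909507-138909756 (minus strand), and its last 13 bases are exonic in the annotation.
Ldha: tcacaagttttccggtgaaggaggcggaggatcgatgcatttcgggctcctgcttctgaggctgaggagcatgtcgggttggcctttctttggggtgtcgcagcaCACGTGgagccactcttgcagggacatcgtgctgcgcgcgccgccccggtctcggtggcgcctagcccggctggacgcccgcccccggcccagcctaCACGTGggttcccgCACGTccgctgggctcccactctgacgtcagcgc
Pgk1: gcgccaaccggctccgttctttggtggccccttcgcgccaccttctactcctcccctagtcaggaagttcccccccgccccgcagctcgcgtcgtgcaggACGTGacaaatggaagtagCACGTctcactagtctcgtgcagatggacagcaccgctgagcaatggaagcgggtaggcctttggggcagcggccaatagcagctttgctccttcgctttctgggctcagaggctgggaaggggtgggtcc
Bnip3: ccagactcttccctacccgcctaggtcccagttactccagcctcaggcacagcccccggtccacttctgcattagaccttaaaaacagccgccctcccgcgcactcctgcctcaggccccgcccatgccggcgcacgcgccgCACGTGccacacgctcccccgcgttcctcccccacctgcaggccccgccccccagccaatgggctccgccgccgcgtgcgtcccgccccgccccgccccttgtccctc

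The stretch of 30 bases around the motif in 6 further genes is given because these genes stand for different steps: glucose uptake, lactate export, phosphofructokinase control, oxygen sensing and pyruvate dehydrogenase control. They lie at chr4:119108697-119108726 (*Slc2a1*, plus), chr11:120949028-120949057 (*Slc16a3*, plus), chr2:11553972-11554001 (*Pfkfb3*, minus), chr8:124949305-124949334 (*Egln1*, minus), chr12:54204086-54204115 (*Egln3*, minus) and chrX:93832186-93832215 (*Pdk3*, minus). In the annotation, that of *Egln3* is upstream of the gene, that of *Pfkfb3* is wholly exonic, and the others hold between 5 and 20 exonic bases.
Slc2a1: gtcccgccccggACGTGctccccaggcccc
Slc16a3: caggcagcggtgACGTGcgcgggggACGTG
Pfkfb3: ctccgcgccgtgACGTGccaagctgtgacc
Egln1: gggccgtggtgtACGTGcagcgcgcgcgga
Egln3: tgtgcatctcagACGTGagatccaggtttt
Pdk3: cgcgcgccgcgtACGTGcggcggcagatcc

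The table gives 1 mean per genotype, without a spread. Where the mean was at most 1000, the whole counts of the single libraries were recovered from it, which succeeded in both genotypes for 10 of the 40 genes. A total of 29 genes averaged 1000 or more, and *Pdk2* was recovered in the null libraries only. All values below are normalized counts unless said otherwise. For these 30 genes they are the authors' means of 5 libraries, and they were not tested here. Libraries are numbered 1 to 5 within a genotype by decreasing depth, between an estimated 11328000 and 14023000 read pairs, and these are not the replicate numbers of the labels. The labels give no litter or batch.

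The targeted gene had a mean of 144 normalized counts in wild-type and 39.8 in null hearts, and its ranges over libraries (126 to 161 and 31.1 to 44.4) did not overlap (limma log2 fold change −1.83, SE 0.120, adjusted p = 7.49e-09). The 12 cardiomyocyte markers were present, with means from 1688 to 128162 in wild type and a median log2 ratio of 0.0011 between genotypes. Markers of other cells differed more. The summed mean of 11 erythroid markers was 225723 in wild type and 321275 in null, and 10 of the 11 were higher in the null mean, with a median log2 ratio of 0.42. Neuronal and glial markers had a median log2 ratio of −2.0 (10 genes), and in the 7 with recovered counts the sum was 1066 in wild-type library 3 against 175 to 219 in the other wild-type and 182 to 216 in the null libraries. The same library had the highest sum of 8 skeletal muscle markers, 317 against 107 to 187 in the other wild-type and 133 to 224 in the null libraries, with embryonic myosin *Myh3* at 103 against 0.968 to 4.35 in the other 9. In bulk tissue, fewer cells of a type and less RNA per cell cannot be told apart. The part of these differences in the results below was not tested, and values without library 3 are given where they matter.

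Levels of the 40 genes were close in the 2 genotypes. The null mean was above the wild-type mean for 32 genes (80%) and below it for 8, and the differences lay between −3.37% (*Hk2*) and 13.9% (*Pfkfb2*). The log2 ratio was above 0 in 49.5% of the 13299 protein-coding genes that averaged 10 or more. None of the 40 genes passed an absolute log2 ratio of 0.25, where the share over the same 13299 genes was 6.68%. Within 0.1 were 35 of the 40, as were 76.0% of the 13299 genes. The median log2 ratio was 0.029 for the 40 genes and −0.00093 for the 13299 genes. Together the 40 genes held 1.67% of all normalized counts in wild-type and 1.69% in null hearts.

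**Figure D1:**
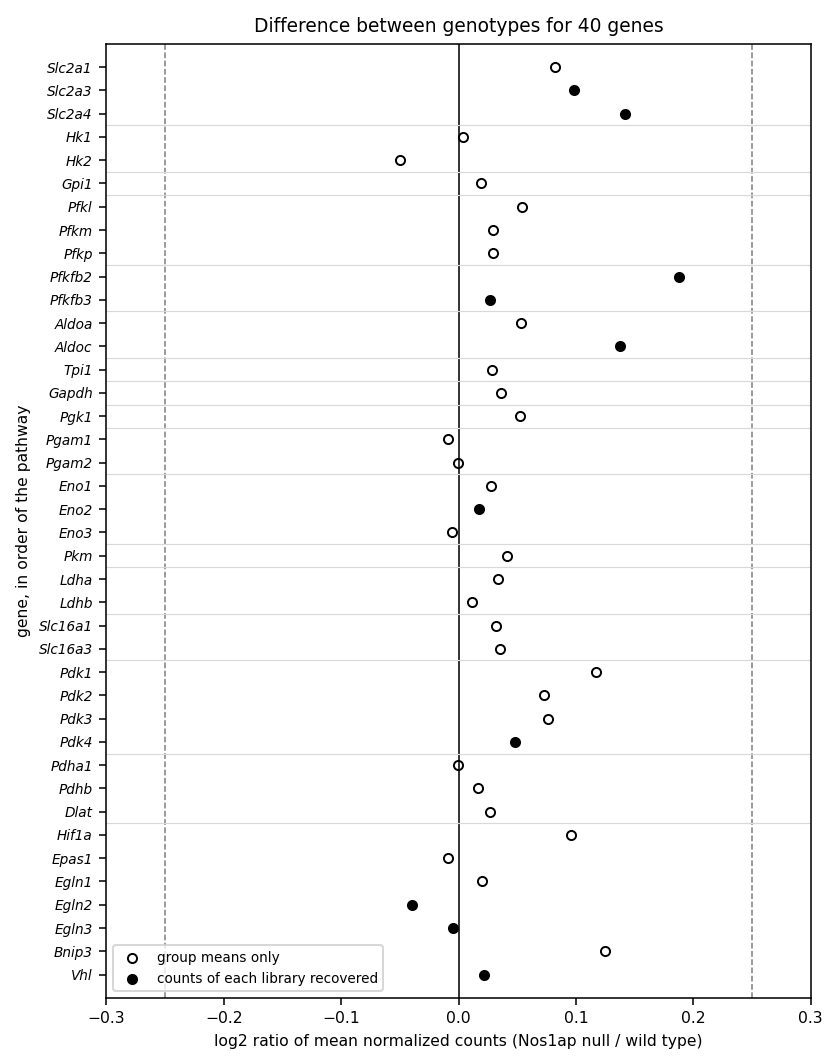
Log2 ratio of the mean normalized count in *Nos1ap* null over wild-type hearts (x axis) for each of the 40 genes (y axis, in pathway order, steps divided by grey lines). Filled points are the 10 genes with recovered counts in every library, open points have group means only, and dashed lines mark 0.25 in each direction. All points lie between −0.049 and 0.19, and 32 lie right of 0.

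The shares were also taken at matched abundance. Of the 29 genes that averaged 1000 or more, 23 (79.3%) were higher in the null mean, against 55.8% of 2622 protein-coding genes of that abundance. The median log2 ratio was 0.029 in the 29 genes and 0.0057 in the 2622. Of the 29, 2 genes, *Pdk1* and *Bnip3*, exceeded 0.1 (6.90%), as did 3.24% of the 2622 genes. Of the 2622, 95.7% were within 0.1 and 0.725% passed an absolute ratio of 0.25, so that 0 members past it is near the share at this abundance. Of the 11 less abundant genes, 9 (81.8%) were higher in the null mean, against 48.0% of 10677 genes averaging 10 to 1000. A ratio over 0.1 was present in 3 of the 11 and in 12.5% of the 10677. The genes were measured in the same 10 libraries and are not independent, so that these shares are a description and carry no test.

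**Figure D2:**
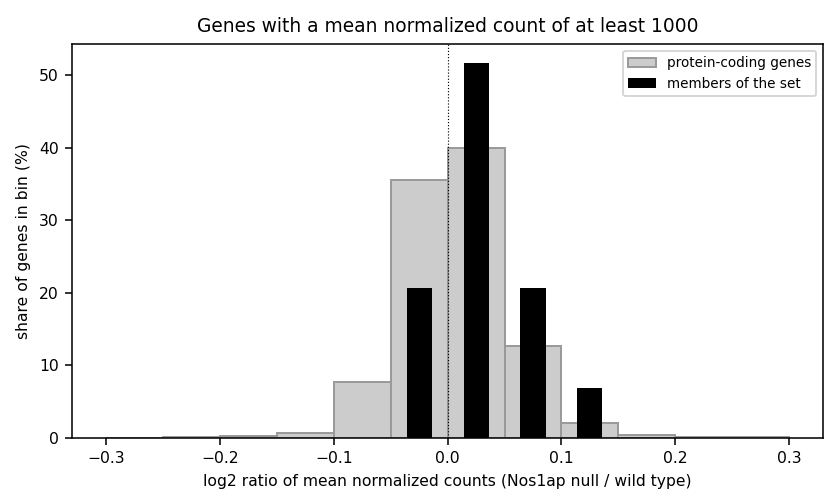
Share of genes (y axis, %) in bins of 0.05 of the log2 ratio of null over wild-type means (x axis), for the 2622 abundant protein-coding genes (averages of 1000 or more, grey bars) and for the 29 such members (black bars). Of the members, 6 lie below 0, 15 between 0 and 0.05, 6 between 0.05 and 0.1, and 2 above, while 16 of the grey genes fall outside the range drawn.

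With limma on the recovered counts, 0 of the 10 testable members passed an FDR of 1% with an absolute log2 fold change over 1, while 3 of the 10319 protein-coding genes fitted did (0.0291%). At an unadjusted p under 0.05 the number was also 0 of 10, where 3.57% of the 10319 genes were under that value. The voom form of limma gave the same counts of 0. With 1 library left out the count at this unadjusted p was 0 to 2. It was 1 without wild-type library 1 or 2 or null library 2 (*Slc2a4*, log2 fold changes 0.18, 0.19 and 0.17), 1 without wild-type library 4 or null library 3 (*Pfkfb2*, 0.23 and 0.25), and 2 without null library 4 (*Slc2a3*, 0.12, and *Slc2a4*, 0.17). Without wild-type library 3 both counts were 0. The adjusted limma p of the genes named was at least 0.836. The smallest limma p was 0.0643 (*Slc2a4*) and the smallest exact permutation p was 0.103 (*Slc2a3*), where 5 libraries against 5 allow no p below 0.00794. The adjusted limma p with all libraries was 0.998 for each of the 10. The standard errors of their log2 fold changes lay between 0.0529 and 0.133, and in no gene were the groups separate. The coefficient of variation within a genotype was between 3.81% and 18.2%, with a median of 10.2%.

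**Figure D3:**
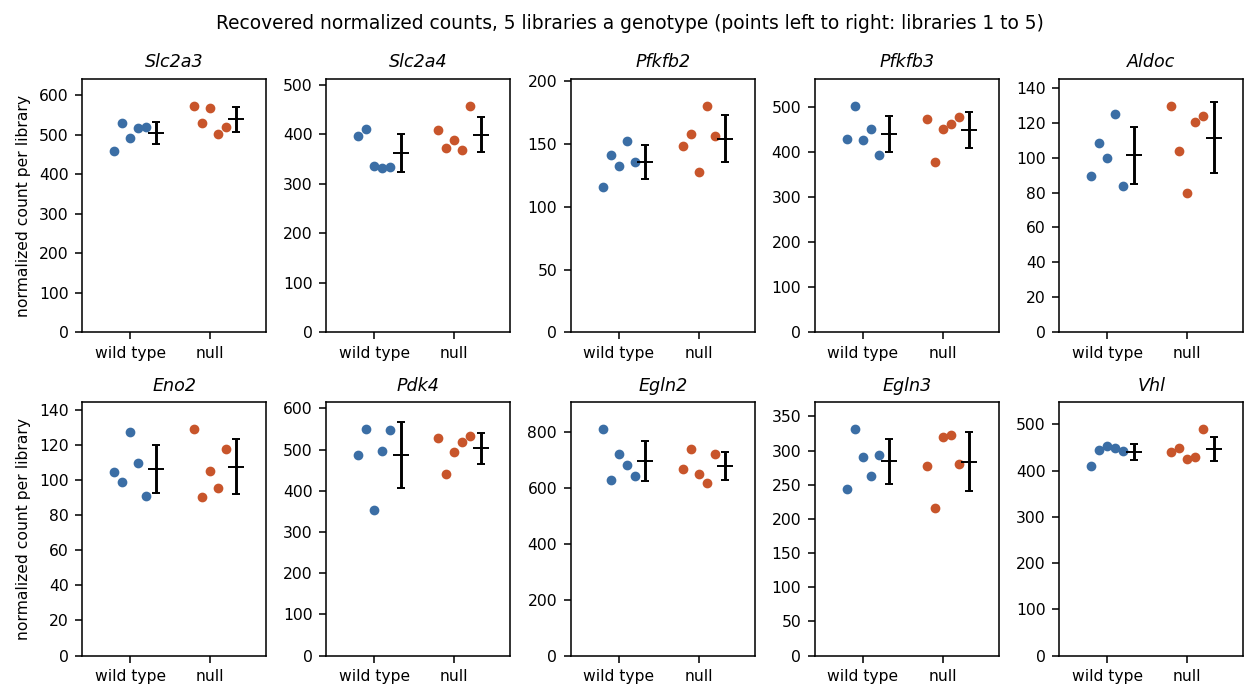
Normalized count (y axis, from 0, a scale for each panel) in the 5 wild-type (blue) and 5 *Nos1ap* null (orange) libraries for the 10 members with recovered counts. Points run from library 1 on the left to library 5 on the right within each genotype, and the bar to their right is the mean with its SD. The genotypes overlap in every panel, and wild-type library 3 is the lowest point for *Pdk4* and the highest wild-type point for *Eno2*.

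Uptake of glucose was represented by 3 facilitative transporters, and all 3 had higher means in null hearts. *Slc2a1* encodes GLUT1, the widely expressed transporter of basal uptake, and its mean was 4168 in wild type and 4412 in null (5.86% higher). *Slc2a4* (chr11:69942539-69948188 on GRCm38, minus strand) encodes GLUT4, the transporter that insulin brings to the membrane of muscle and fat cells. Its normalized counts were 398, 410.4, 336, 332 and 334 in wild-type libraries 1 to 5. They were 409.5, 373, 388, 369 and 457 in null libraries 1 to 5. Wild-type libraries 1 and 2 stood within the null range and the other 3 below it, so that the groups overlapped, with a limma log2 fold change of 0.14 (95% interval −0.0094 to 0.30, p = 0.0643, exact permutation p = 0.159). *Slc2a3* (chr6:122727809-122801640, minus strand) encodes GLUT3, a high-affinity transporter best known from neurons and the placenta. Its counts were 459, 529.5, 493, 516 and 518 in wild type and 572, 529.9, 569, 503 and 519.5 in null. The 3 highest null libraries exceeded every wild-type library while the other 2 did not (0.098, interval −0.014 to 0.21, limma p = 0.0824, exact permutation p = 0.103).

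Per kilobase of exon, *Slc2a1* held 87.3% of the summed level of the 3 transporters in wild type and 86.9% in null. Its level was 11.4 times that of *Slc2a4* and 17.1 times that of *Slc2a3* in wild type. Between the latter genes the order was clear with exon length, 95.5 to 118 per kb for *Slc2a4* against 63.4 to 73.1 for *Slc2a3* over wild-type libraries. With the length of the longest coding transcript the ranges met, at 132 to 163 and 116 to 134 per kb, and with the mean length of the coding transcripts the order turned, with wild-type means of 296 for *Slc2a4* and 373 for *Slc2a3*.

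The hexokinases trap glucose as glucose 6-phosphate. *Hk1*, the ubiquitous form, was at 5451 in wild type and 5466 in null. *Hk2*, the insulin-responsive form of muscle, was at 1628 and 1573 and had the lowest ratio of all 40 genes (−3.37%). *Hk1* was the higher of the 2 per kb, at 639 against 273 in wild type and 641 against 264 in null. The gap depended on the length, with wild-type levels of 1274 against 295 for the longest and 4382 against 554 for the mean coding transcript. *Gpi1*, which isomerizes glucose 6-phosphate to fructose 6-phosphate, was at 10468 and 10611.

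The 3 subunits of phosphofructokinase, the committed step of glycolysis, were each slightly higher in the null mean. *Pfkl* (liver form) was at 3450 and 3582, *Pfkm* (muscle form) at 2016 and 2057, and *Pfkp* (platelet form) at 2593 and 2646. Which subunit led depended on the length used. Per kb of exon, *Pfkm* had 45.9% of the wild-type level and *Pfkl* 39.3%, whereas with the longest coding transcript *Pfkl* had 41.1% and *Pfkm* 31.1%.

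The bifunctional enzymes that make and remove fructose 2,6-bisphosphate, the activator of phosphofructokinase, were much lower and were recovered for every library. *Pfkfb2* (chr1:130689182-130729253, minus strand), the heart form, had the largest ratio of the set. Its counts were 116, 141, 132, 153 and 136 in wild type and 149, 158, 128, 180.4 and 157 in null. Null libraries 2, 4 and 5 exceeded every wild-type library, and libraries 1 and 3 lay within the wild-type range (log2 fold change 0.18, interval −0.018 to 0.39, limma p = 0.0726, exact permutation p = 0.119). *Pfkfb3*, the inducible form, had counts of 428, 502, 428, 451 and 394 in wild type and 474, 378, 452, 463 and 478 in null. Its null library 2 stood below the rest and below every wild-type library (0.027, interval −0.12 to 0.17, limma p = 0.709, exact permutation p = 0.754). That library also had the highest sum of the 2 erythroid markers with recovered counts, 362 against 77.6 to 277 in the other 9. The share of *Pfkfb2* in the summed per-kb level of both was 24.3 ± 1.97% (SD, n = 5) in wild type and 26.4 ± 3.11% in null. This difference of 2.12 percentage points did not pass the test (exact permutation p = 0.246, the only step where a share was tested). It was 1.14 points without null library 2 and at most 3.02 points with any other library left out.

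At the aldolase step, which splits the sugar, 1 isoform held nearly the whole level. *Aldoa*, the muscle and embryonic aldolase, was at 17804 in wild type and 18476 in null, and exceeded the brain form *Aldoc* 197-fold and 186-fold per kb. *Aldoc* counts were 89.6, 108, 99.8, 125 and 83.8 in wild type and 129.6, 104, 79.6, 120.3 and 124 in null. The lowest library of all 10 was a null library, and so was the highest (log2 fold change 0.13, interval −0.15 to 0.41, limma p = 0.342, exact permutation p = 0.413). *Tpi1*, which interconverts the triose phosphates, was at 9706 and 9900. *Gapdh*, which oxidizes glyceraldehyde 3-phosphate and had the highest level of the set, was at 40008 and 41019. *Pgk1*, which makes the first ATP of the pathway, was at 10471 and 10861. The means of *Aldoa*, *Tpi1*, *Gapdh* and *Pgk1* were each higher in null hearts by 2.0% to 3.77%.

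At the mutase and enolase steps, muscle isoforms stood beside the ubiquitous ones. *Pgam1* (brain and ubiquitous form) was at 8015 and 7965, and *Pgam2* (muscle form) at 2549 and 2548, so that *Pgam2* made up 42.9% and 43.0% of the step per kb. *Eno1* (ubiquitous) was at 15343 and 15637, and *Eno3* (muscle) at 2223 and 2214, with a share of 30.8% and 30.3%. The wild-type share of *Eno3* was 15.7% with the longest and 14.7% with the mean coding transcript. *Eno2*, the neuronal enolase, made up 0.543% of the step in both genotypes. Its counts were 104, 98.7, 127, 109 and 91.0 in wild type and 129, 90.5, 105, 95.6 and 118 in null (log2 fold change 0.014, interval −0.22 to 0.25, limma p = 0.901, exact permutation p = 0.897). The highest wild-type value was that of library 3, which had the high sum of neuronal and glial markers. Without that library the fold change was 0.081.

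Pyruvate kinase *Pkm*, which makes pyruvate, was at 18004 and 18531 (2.92% higher in null). Lactate dehydrogenase interconverts pyruvate and lactate, and both subunits were abundant. *Ldha*, the form of glycolytic tissue, was at 14759 and 15105, and *Ldhb*, the form of the adult heart, at 4332 and 4368. *Ldha* held 61.8% of the step per kb of exon in wild type and 62.1% in null. With the longest coding transcript its wild-type share was 71.0%. The monocarboxylate transporters move lactate across the membrane. *Slc16a1* (MCT1) was at 2044 and 2089, and *Slc16a3* (MCT4, the exporter of glycolytic cells) at 2395 and 2455. The 2 were close per kb of exon (462 and 450 in wild type), and with the longest coding transcript *Slc16a3* was the higher (553 against 462).

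Entry of pyruvate into the mitochondrial citrate cycle is gated by pyruvate dehydrogenase, which its kinases switch off. The 4 kinases each had a higher mean in null hearts. *Pdk1*, a HIF target, was at 2398 and 2601 (8.46% higher). *Pdk2* was at 912 and 959, *Pdk3* at 1239 and 1306, and the null libraries of *Pdk2* ranged from 894 to 1024. *Pdk4*, the kinase induced by fasting and fatty acids, had counts of 486, 549, 352, 497 and 548 in wild type and 529, 440.4, 494, 519 and 533 in null. Wild-type library 3 was the lowest of the 10 libraries, and the null range lay within the wild-type range (log2 fold change 0.062, interval −0.19 to 0.31, limma p = 0.593, exact permutation p = 0.738). Without library 3 the fold change of *Pdk4* was −0.050. Per kb of exon the order in wild type was *Pdk3* (39.7% of the sum), *Pdk1* (25.3%), *Pdk2* (23.6%) and *Pdk4* (11.4%). No share moved by more than 0.615 points between genotypes. The subunits of the complex itself hardly differed, with *Pdha1* (E1 alpha) at 4238 and 4237, *Pdhb* (E1 beta) at 2661 and 2692, and *Dlat* (E2) at 2001 and 2039.

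**Figure D4:**
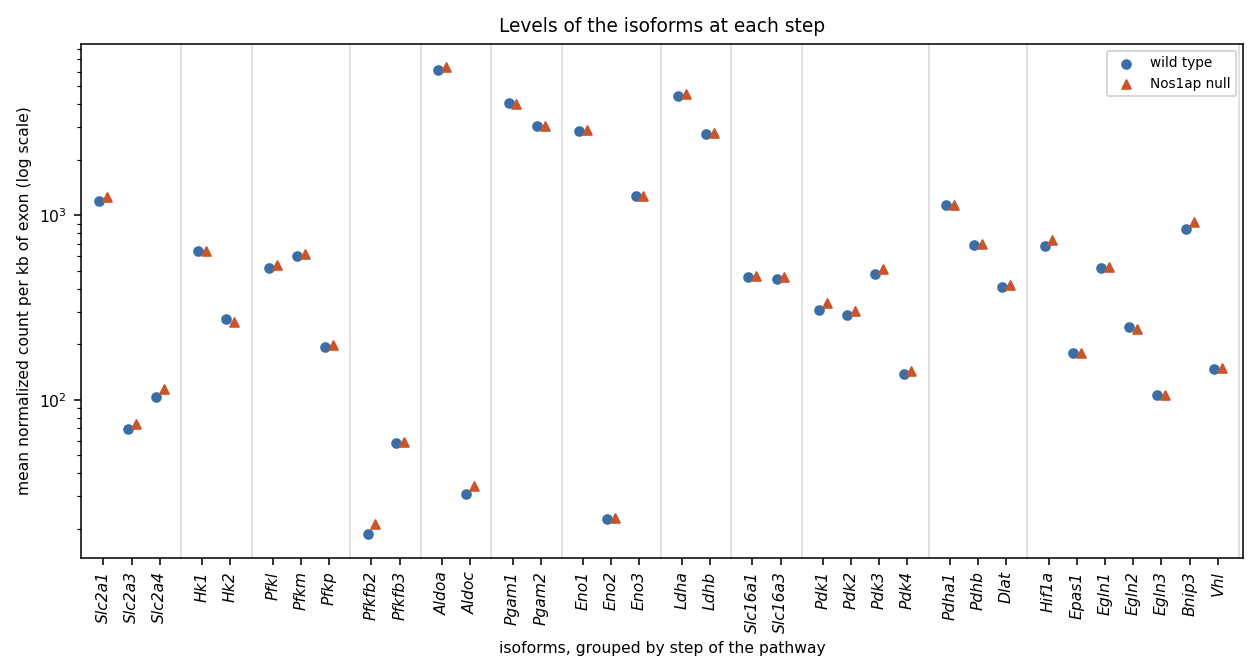
Mean normalized count per kb of annotated exon (y axis, log scale) for the members at steps with more than 1 gene (x axis), in wild-type (circles) and *Nos1ap* null (triangles) hearts. The means are those of the authors over 5 libraries, with no error bar. At each of the 10 steps with isoforms, the same isoform was highest in both genotypes.

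The regulators of the hypoxia response showed both directions. *Hif1a*, the oxygen-labile subunit of HIF-1, was at 4045 in wild type and 4321 in null (6.85% higher). *Epas1*, the HIF-2 alpha subunit of endothelium, was at 1004 and 997, with 899 to 1065 over the null libraries. *Hif1a* was 3.82 times *Epas1* per kb of exon in wild type and 4.11 times in null. The gap was wider with the mean coding transcript, with wild-type levels of 1116 against 182 per kb. *Bnip3*, a HIF target that drives removal of mitochondria, was at 1900 and 2072 (9.01% higher) and had the largest ratio among the 29 abundant genes.

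The prolyl hydroxylases differed in level among themselves far more than between genotypes. *Egln1*, the main oxygen sensor for HIF-1, was at 1864 and 1891. It was 2.09 times *Egln2* and 4.85 times *Egln3* per kb of exon in wild type. The gap to *Egln2* was smaller with the mean coding transcript, at 519 against 360 per kb. *Egln2* counts were 808, 628, 721, 681 and 642 in wild type and 665, 737, 647, 617 and 719.9 in null (log2 fold change −0.037, interval −0.17 to 0.10, limma p = 0.584, exact permutation p = 0.667). The highest was wild-type library 1, without which the fold change was 0.019. *Egln3*, the hydroxylase that hypoxia induces, had counts of 244, 331, 290.1, 263 and 294 in wild type. In null they were 278, 216, 319.6, 323 and 281 (−0.011, interval −0.24 to 0.21, limma p = 0.916, exact permutation p = 0.992). The lowest library was a null one and the highest a wild-type one. *Vhl*, which encodes the substrate receptor of the ubiquitin ligase, had the least spread of the 10 genes in wild type (3.81%), with 411 to 453 in wild type and 425 to 489 in null (0.021, interval −0.090 to 0.13, limma p = 0.703, exact permutation p = 0.675).

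Other genes of these pathways were taken from lists of known members, and 0 of the 45 tested with limma passed an FDR of 5%, with 1 under an unadjusted p of 0.05. The unadjusted count compares with 3.57% of all 10319 genes fitted. Of 11 further glycolytic genes averaging 10 or more, 7 were higher in the null mean (median log2 ratio 0.049), as were 5 of 7 genes of pyruvate entry (0.018), 11 of 17 of glycogen and pentose phosphate metabolism (0.025), 7 of 12 HIF partners and regulators (0.021), 13 of 23 further HIF targets (0.034) and 8 of 12 other regulators of glucose use (0.021). These counts stand beside 49.5% of the 13299 genes, and 48.0% and 55.8% in the lower and upper abundance class. *Bpgm*, the enzyme of red cells that makes 2,3-bisphosphoglycerate, was at 815 and 1131 (log2 ratio 0.47). *Pklr*, the pyruvate kinase of liver and red cells, was at 11.5 and 21.1 (0.88) with 45.2 in null library 2 and 1.0 in null library 3 (limma p = 0.652, exact permutation p = 0.286). *Hmox1*, which degrades heme, was at 305 and 432 (0.51), and its counts could not be recovered. The erythroid markers had a median ratio of 0.42 and their highest recovered sum in null library 2, and the part of red cells in these 3 genes was not tested. *Ldhd*, the dehydrogenase of D-lactate, was at 11.7 and 13.7 (0.23, limma p = 0.433, exact permutation p = 0.516). *Pygl*, the liver form of glycogen phosphorylase, was the gene with an unadjusted limma p under 0.05 (506 and 548, log2 fold change 0.11, SE 0.048, p = 0.0277, adjusted p = 0.998, exact permutation p = 0.0317).

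Counting limits some of these levels. Of the 40 genes, 9 share at least 10% of their 50-base stretches of transcript with another gene, mostly a processed pseudogene, and 21 share none. The share was 53.9% for *Pgk1*, 36.2% for *Pgam1*, 26.0% for *Eno1* and 24.7% for *Gapdh*, so that reads of these genes could be split with their copies. The genes that share them had summed means of 408 in wild type and 396 in null for *Pgk1*, and 942 and 948 for *Gapdh*, small beside the levels of the members themselves.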

How the data were processed

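PolyA RNA of 10 hearts was sequenced as stranded paired-end libraries. Per the submitters' notes and the study's methods, the authors trimmed reads with Trimmomatic 0.36, ran STAR within RSEM 1.2.31 on GENCODE M10 transcripts, and compared gene counts with DESeq 1.24.0. The signal values used are normalized counts, which the authors divided by a size factor per library and averaged over the 5 libraries of a genotype before deposit. The deposited fold change, log2 fold change and p-value columns hold the authors' own comparison and were not used. RSEM can share reads between near-identical copies, and normalized counts of different genes are compared only per kb.

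Whole counts of each library were recovered from the 15 printed digits of the group means, as the set of 5 counts, each divided by its size factor, that gives the mean. This was done for means up to 1000, where at most 0.01 other sets were expected to lie as near, and it settled 93.8% to 100.0% of wild-type and 94.9% to 98.9% of null means by abundance class. On simulated data the search returned 0 wrong sets. The simulated spread was a fixed function of the mean, lower than in genes such as *Pdk4* in wild type (coefficient of variation 16.5%). The 0 holds for that spread only. Size factors recomputed from the recovered counts differed by at most 0.845%. This is a weak check, because the search takes the set nearest to equal normalized levels in the libraries. Genes with counts that vary widely between libraries are recovered less often. The design named tests for recovered counts, so that no count test was run on the deposited values. The 10319 protein-coding genes averaging 10 or more with recovered counts in both genotypes were fitted with limma 3.58.1 in R 4.3.3 on log2(normalized count + 1), trended and robust, with Benjamini-Hochberg adjustment over all of them. The script was tested on simulated data. Single genes were compared by exact two-sided permutation. Fold changes on this scale understate the change of low genes. Lengths are of all exons in GENCODE M21 (GRCm38), to which 23051 gene IDs matched without their version.

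All 40 genes are named, with library values where recovered. Pathway genes are named where the unadjusted p was under 0.05 or the absolute log2 ratio over 0.2. The further *Slc2a* genes averaging 10 or more are named as well. Members, lists and tests were chosen with earlier results of these data known. Marker lists not mentioned above had median log2 ratios of 0.088 (skeletal muscle, 5 genes with a mean of at least 10), −1.34 (fetal liver, 1), 0.034 (endothelial, 5), 0.077 (epicardial, 5) and −0.21 (cartilage, 4), and no lung epithelium marker had a mean of at least 10. Alternatives changed thresholds, pseudocount, filter, scaling, weights, gene length and libraries.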

Additional observations from a re-analysis of the deposited data

Results flagged for a closer look

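In 22 groups of 5 library values looked at, 2 had a library far from the others by Dixon's test at 95%, and chance gives about 1 in 20 groups. *Pfkfb3* in null hearts had a low value of 378 normalized counts in library 2, where the other 4 were at 452 to 478. *Vhl* in wild-type hearts had a low value of 411 in library 1, where the other 4 were at 442 to 453.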

How the results depend on the processing

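The counts of 0 members called by limma and the median log2 ratio held under every alternative run. The exceptions were the count at an unadjusted p under 0.05, which was 0 to 2 with single libraries left out, and the count past a fold limit, which was 5 with an absolute log2 ratio over 0.1. The filters on the mean left out no member, so that they could not move the median. With single libraries left out, the log2 fold change crossed 0 for *Pfkfb3* (−0.012 to 0.087), *Eno2* (−0.053 to 0.081), *Pdk4* (−0.050 to 0.11), *Egln2* (−0.072 to 0.019), *Egln3* (−0.064 to 0.083) and *Vhl* (−0.013 to 0.037), none of which passed a test. It stayed above 0 for *Slc2a3* (0.066 to 0.12), *Slc2a4* (0.094 to 0.19, lowest without null library 5), *Pfkfb2* (0.13 to 0.25) and *Aldoc* (0.066 without wild-type library 5 to 0.24 without null library 3). Gene length decided the leading member at 3 steps. With the longest and the mean coding transcript, the wild-type share was 31.1% and 26.4% for *Pfkm*, 45.5% and 26.6% for *Slc16a1*, and 39.8% with either for *Pdha1*, and another gene led. No paired analysis was possible because the group means carry no replicate numbers. For the 30 members with group means only, neither a spread nor a left-out library can be given, and among 2246 fitted genes with means of 500 to 1000 the median standard error was 0.049.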
